A study of Mus musculus with 10 samples.

Results

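The 9 genes described here are markers of the Purkinje cell, the output neuron of the cerebellar cortex: Pcp2, Pcp4, Calb1, Ppp1r17, Slc1a6, Car8, Itpr1, Rora and Foxp2. They were chosen by name, with earlier results of these data known. Every probe set that the array annotation assigned to each symbol was taken, whatever its signal. This gave 28 probe sets of 45101 for 8 genes of 18194, with 9 for Rora, 6 for Foxp2, 4 for Calb1, 3 each for Pcp2 and Car8, and 1 each for Pcp4, Ppp1r17 and Slc1a6. Itpr1, the IP3 receptor that releases calcium from the endoplasmic reticulum, was not analysed here.

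RNA levels were read from 10 Affymetrix arrays of the type Mouse Genome 430 2.0, each hybridized with RNA of 1 primary culture enriched for cerebellar granule cell precursors (GCPs), the dividing cells that give rise to granule neurons. Without treatment there were 3 wild type and 3 Bmi1 knockout cultures, and with Shh there were 2 of each genotype. Bmi1 is a Polycomb protein, and Shh (Sonic hedgehog) is the secreted mitogen of these precursors. All cultures came from whole cerebella of pups at postnatal days 5 to 7 (day 7 in the series text) and were grown for 24 hours in medium with 10% serum and 20 mM KCl. Treated cultures had Shh for 24 hours at a concentration labelled 3 mg/ml. Whether the cultures without Shh were harvested at the same age in vitro, how many animals a culture held, the mouse strain and which part of Bmi1 was deleted are not given in the sources used here. The p-values therefore measure the spread between these cultures. For replicate 3 (wild type) a protocol field mentions Shh conditionally, but the other labels give no treatment, and the array was placed with the untreated ones. Genotypes are given as labelled: the signals of both Bmi1 probe sets overlapped between the genotypes (3673 to 4515 in the wild type arrays and 3416 to 3904 in the knockout arrays for the brighter), and since the position of the deletion is not known, neither probe set checks the label.

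Purkinje cells receive the parallel fibres of granule cells on their dendrites, fire inhibitory output to the deep nuclei and, during postnatal growth, are the source of Shh for the granule cell precursors above them. They are known for very high levels of calcium-handling proteins, because their main slow synaptic response runs through phospholipase C and IP3 to calcium release. The nuclear receptor encoded by Rora drives their maturation, and loss of it in the staggerer mouse arrests them. Rora protein binds the letters AGGTCA, a half-site, in the promoters of several Purkinje genes. The promoter sequences are shown because these genes moved together.

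Of the 9 genes, 4 had a promoter window in RefSeq (build GRCm38.p6), Pcp2 with 4 windows for alternative starts and Pcp4, Slc1a6 and Rora with 1 each. The 250 bases before the start are printed 5′ to 3′ on the strand of the gene, with each match to AGGTCA, or to TGACCT where the match is on the other strand, in capitals. The positions are chr8:3625548-3625797 (minus strand) for the first Pcp2 window, chr16:96467356-96467605 (plus strand) for Pcp4, chr10:78780246-78780495 (plus) for Slc1a6 and chr9:68653536-68653785 (plus) for Rora. The Slc1a6 and Rora windows lie inside the annotated genes, which begin at 78780086 and 68653404, and so precede a start further in.
Pcp2: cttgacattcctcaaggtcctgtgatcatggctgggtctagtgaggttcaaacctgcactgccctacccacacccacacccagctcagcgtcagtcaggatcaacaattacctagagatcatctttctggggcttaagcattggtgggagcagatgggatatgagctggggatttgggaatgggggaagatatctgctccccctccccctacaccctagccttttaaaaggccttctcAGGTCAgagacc
Pcp4: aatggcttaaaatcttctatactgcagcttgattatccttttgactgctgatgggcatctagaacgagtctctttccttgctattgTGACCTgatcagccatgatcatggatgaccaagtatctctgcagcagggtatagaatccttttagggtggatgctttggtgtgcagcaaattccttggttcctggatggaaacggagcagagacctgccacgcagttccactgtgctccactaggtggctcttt
Slc1a6: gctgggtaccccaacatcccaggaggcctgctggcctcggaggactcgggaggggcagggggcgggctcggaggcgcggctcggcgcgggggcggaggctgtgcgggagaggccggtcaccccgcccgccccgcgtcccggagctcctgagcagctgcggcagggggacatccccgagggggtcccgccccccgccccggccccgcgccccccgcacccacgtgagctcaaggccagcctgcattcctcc
Rora: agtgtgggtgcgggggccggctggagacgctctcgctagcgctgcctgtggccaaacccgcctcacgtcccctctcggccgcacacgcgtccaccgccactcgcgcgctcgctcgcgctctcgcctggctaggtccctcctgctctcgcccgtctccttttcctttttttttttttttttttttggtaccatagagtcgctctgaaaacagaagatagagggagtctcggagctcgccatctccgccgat

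AGGTCA was found in 3 of the 4 Pcp2 windows. In the printed one it lay 12 to 7 bases before the start, on the strand of the gene, and the overlapping second window held the same bases. In the Pcp4 window it lay 164 to 159 bases before the start, on the opposite strand, and the Slc1a6 and Rora windows held no match. For Slc1a6 and Rora, the bases before the annotated beginning of the gene were not searched. Over all RefSeq windows of this length, 4607 of 32851 (14%) held the half-site on either strand. The 9-letter Gli consensus GACCACCCA, bound by the transcription factors that act below Shh, was in 0 of the 7 windows of the members and in 74 (0.225%) of all windows. A match is a description of letters and not a binding site.

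Signals are in the arbitrary linear units of the array, scaled by the authors so that the trimmed mean of each array was 500. Values below 20.9, the 25th percentile of all signals, were raised to it before log2 was taken, and 22519 probe sets whose mean log2 signal was at least 6.25 were tested. Of the member probe sets, 22 passed this filter and 6 did not: 1 each for Pcp2 and Calb1 and 2 each for Rora and Foxp2. Median signals were 84.8 to 91.2 on the untreated arrays and 66.8 to 72.3 on the Shh arrays. The correlation between arrays over the tested probe sets was 0.918 to 0.985. The 3′ probe set of the 18S ribosomal RNA control stood at 2030 on wild type replicate 1 and 6301 on knockout replicate 6, against 219 to 649 on the others. Signals of different probe sets are not compared with each other, since each has its own affinity.

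With Shh, all 8 genes with a probe set fell in both genotypes, judged by the brightest probe set of each. With Shh, the brightest probe sets of the 8 genes stood at a median of 19.4% of the untreated level in wild type and 20.3% in the knockout. Of the 22 tested probe sets, 20 fell in wild type (90.9%), where 17.2% of all tested probe sets fell, and 20 fell in the knockout (90.9%), where 13.6% of all fell (limma, adjusted p under 0.05). None rose: the count was 0 in both genotypes, against 9.82% and 7.62% of all tested probe sets. The filter used the mean of all 10 arrays, so a probe set could pass through its untreated arrays alone. Ppp1r17, Car8 1424958_at and 1457904_at, Foxp2 1422014_at and Rora 1436325_at were below the filter signal of 76.1 on every Shh array. The share that fell is partly set by this selection, and the members were chosen with earlier results of these data known. The median log2 difference of the member probe sets was -2.30 in wild type and -2.17 in the knockout, against -0.03 and -0.01 over all tested probe sets. Shh and untreated arrays did not overlap in 20 of 22 member probe sets in wild type and 22 of 22 in the knockout. Of all tested probe sets, 30.5% and 27.6% had every Shh array below every untreated one. The 2 Shh effects rest on separate arrays. In bulk RNA, fewer Purkinje cells and less of these RNAs per cell cannot be told apart.

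**Figure D1:**
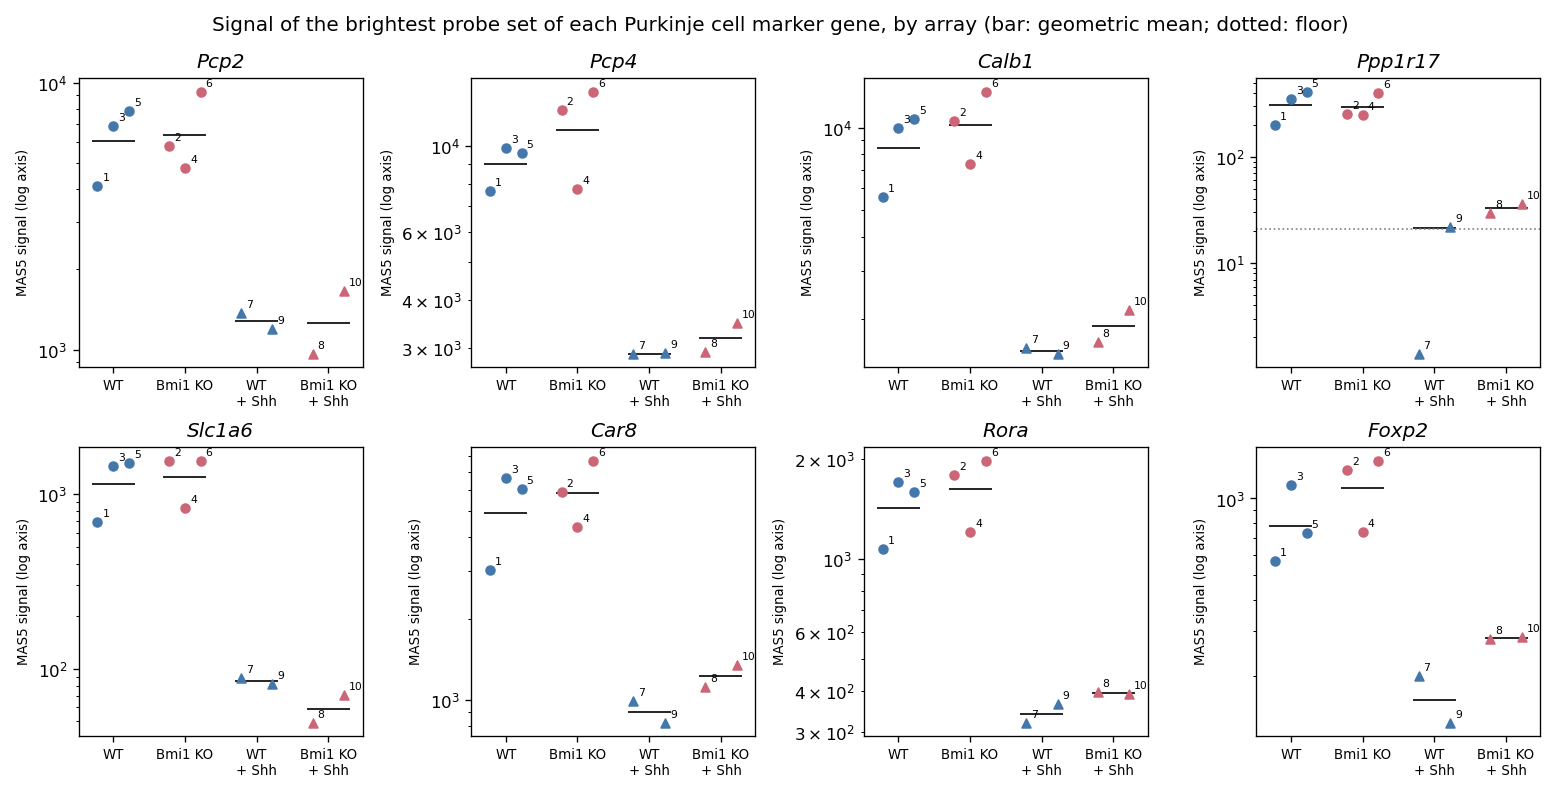
Array signal (log axis, arbitrary units) of the brightest probe set of each of the 8 genes, with 1 point per culture in the 4 groups, a bar at the geometric mean after flooring and a dotted line at the floor of 20.9 where signals come near it. In every panel all Shh cultures lie below all untreated cultures, while the untreated wild type and knockout points overlap.

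The calcium-handling genes are described first. Calb1 encodes calbindin, the cytosolic calcium buffer that is the classic histological marker of Purkinje cells. Its brightest probe set read 5564, 9953 and 10769.7 in untreated wild type cultures (replicates 1, 3 and 5) and 10585, 7373 and 13556 in untreated knockout cultures (replicates 2, 4 and 6). With Shh it read 1564 and 1488 in wild type (replicates 7 and 9) and 1645 and 2165 in the knockout (replicates 8 and 10). The lowest untreated culture was wild type replicate 1, and it still lay above all 4 Shh cultures. Calb1 fell in wild type, with a log2 difference of -2.46 (SE 0.32, adjusted p = 0.00079), to 18.1% of untreated (95% interval 11.0 to 29.9%). In the knockout it fell to 18.5% (log2 difference -2.43, SE 0.32, adjusted p = 0.00119). The other 2 tested Calb1 probe sets also fell, with log2 differences of -3.48 and -3.16 in wild type and -3.33 and -3.29 in the knockout. The remaining one, at 62.6 or less on every array, was not tested.

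Pcp4, also called PEP-19, is a small protein that binds calmodulin and speeds its exchange of calcium. Untreated signals were 7659, 9876 and 9588 in wild type and 12412, 7746 and 13850.2 in the knockout. With Shh they were 2888 and 2909 in wild type and 2921 and 3472 in the knockout. Pcp4 had the smallest fall among the brightest probe sets in both genotypes, with log2 differences of -1.63 in wild type (SE 0.23, adjusted p = 0.00134) and -1.79 in the knockout (SE 0.23, adjusted p = 0.00118), which left 32.3% and 28.9% of the untreated level. The groups with and without Shh did not overlap.

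Car8 is a carbonic anhydrase relative without enzyme activity that binds the IP3 receptor and lowers its affinity for IP3. Its brightest probe set read 3035, 6629 and 6033 in untreated wild type and 5919, 4378 and 7721 in untreated knockout cultures, then 989 and 817 in wild type and 1111 and 1345 in the knockout with Shh. It fell in both, with log2 differences of -2.46 in wild type (SE 0.34, adjusted p = 0.00114) and -2.26 in the knockout (SE 0.34, adjusted p = 0.00229). Another probe set fell too (-2.92 and -2.52). The dimmest gave log2 differences of -1.24 in wild type (adjusted p = 0.0769, not past the threshold) and -2.34 in the knockout (adjusted p = 0.00747). Its wild type groups overlapped, because replicate 1 was at 58.2 without Shh and replicate 9 at 64.0 with it. Without replicate 1 that wild type difference was -1.69 (adjusted p = 0.0132).

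Pcp2 and Ppp1r17 are signalling modulators. Pcp2, known as L7, carries GoLoco motifs that bind the alpha subunits of Gi and Go, and its promoter is the standard tool for expressing transgenes in Purkinje cells. Its brightest probe set read 4108, 6907 and 7825 in untreated wild type and 5796, 4823 and 9297 in untreated knockout cultures. With Shh it read 1367 and 1195 in wild type and 961 and 1654 in the knockout, so the Shh cultures of both genotypes overlapped each other and lay below every untreated culture. Pcp2 fell to 21.1% of untreated in wild type (95% interval 12.1 to 37.0%, log2 difference -2.24, SE 0.36, adjusted p = 0.00221) and to 19.8% in the knockout (-2.34, SE 0.36, adjusted p = 0.0024). Another probe set fell as well (-2.33 and -2.61), and the dimmest, which was not tested, stood at 27.1 to 83.4 in untreated cultures.

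Ppp1r17, the G-substrate, is phosphorylated by cGMP-dependent protein kinase and then inhibits protein phosphatases. Its only probe set read 198, 353 and 411 in wild type and 252, 247 and 399 in the knockout. With Shh it read 1.39 and 21.8 in wild type, the first below the floor of 20.9, and 29.6 and 36.1 in the knockout. In wild type it was at least 14.3-fold lower with Shh (log2 difference -3.84 with the floor, SE 0.31, adjusted p = 7.43e-05), a bound because 1 of the 2 arrays was at the floor. In the knockout it fell 8.93-fold (log2 difference -3.16, SE 0.31, adjusted p = 0.00031).

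Slc1a6 encodes EAAT4, the glutamate transporter of Purkinje cell dendritic spines. It read 690.2, 1450.1 and 1504 in untreated wild type and 1543, 834 and 1560.3 in untreated knockout cultures. With Shh it read 89.0 and 81.3 in wild type and 48.7 and 71.0 in the knockout. Slc1a6 had the largest fall of the 8 brightest probe sets in the knockout, 21.5-fold (log2 difference -4.42, SE 0.38, adjusted p = 0.000153). In wild type it fell 13.5-fold (-3.75, SE 0.38, adjusted p = 0.000235), close to the bound for Ppp1r17.

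Rora and Foxp2 are the transcription factors of the set. The brightest Rora probe set read 1065, 1701 and 1583 in untreated wild type and 1789.8, 1199 and 1972 in untreated knockout cultures. With Shh it read 319 and 365 in wild type and 396 and 392 in the knockout, all below the untreated range. It fell to 24.0% of untreated in wild type (log2 difference -2.06, SE 0.25, adjusted p = 0.000548) and to 24.4% in the knockout (-2.04, SE 0.25, adjusted p = 0.000832). All 7 tested Rora probe sets fell in wild type, with log2 differences of -2.51 to -1.04. In the knockout 6 of the 7 fell, and 1436325_at differed by -0.60 (adjusted p = 0.106).

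Foxp2, a forkhead repressor expressed in Purkinje cells from their birth onward, is also made by some other neurons. It read 568, 1130.2 and 733 in untreated wild type and 1295, 738 and 1411 in untreated knockout cultures, then 200.2 and 130.3 in wild type and 280.2 and 286 in the knockout with Shh. The brightest probe set fell in both genotypes, with log2 differences of -2.27 in wild type (SE 0.35, adjusted p = 0.00182) and -1.96 in the knockout (SE 0.35, adjusted p = 0.0047). Of its 4 tested probe sets 3 fell in each genotype. The dimmest of them, 1422014_at, differed by -1.25 (adjusted p = 0.113) and -1.45 (adjusted p = 0.0831), and its wild type groups overlapped, with replicate 1 at 48.5 and Shh replicate 7 at 62.3.

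**Figure D2:**
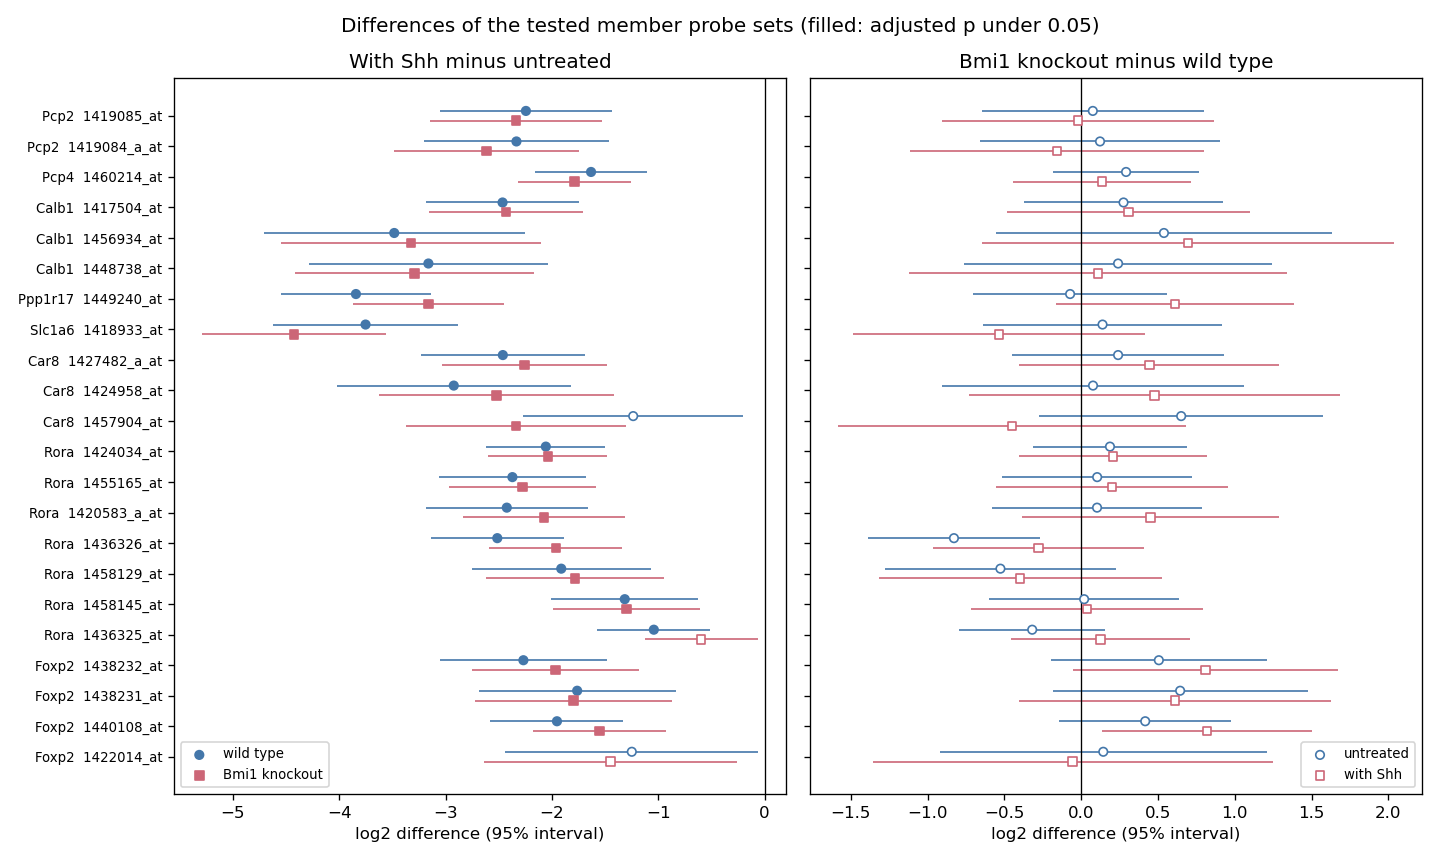
Log2 difference with its 95% interval from the limma fit for each tested member probe set, with the Shh effect in each genotype and the knockout minus wild type difference with and without Shh. All Shh effects lie below 0, from -4.42 to -0.60, and the genotype differences lie on both sides of 0, from -0.83 to 0.82.

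The comparison of genotypes asked whether loss of Bmi1 altered these genes. In untreated cultures 0 of 22 member probe sets passed the limma test (0.182% of all tested probe sets did), and 1 had an unadjusted p under 0.05, against 7.93% of all. That one was Rora 1436326_at, at 315, 531 and 472 in wild type and 218, 201 and 321 in the knockout, a difference of -0.83 (SE 0.25, adjusted p = 0.396). The 7 tested Rora probe sets ran from that value to 0.19, for the brightest. The member median was 0.14 (-0.19 without replicate 1 and 0.38 without replicate 4), and for the 8 brightest probe sets the differences lay between -0.07 (Ppp1r17) and 0.51 (Foxp2). Their 95% intervals reached down to -0.71 (Ppp1r17) and up to 1.21 (Foxp2). With 3 cultures a group, a difference inside the interval of a gene was not excluded for that gene.

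With Shh, 0 of 22 member probe sets passed the limma test between the genotypes (0.337% of all), and 1 had an unadjusted p under 0.05, Foxp2 1440108_at at 0.82 (SE 0.30, adjusted p = 0.471). Among the brightest probe sets, 6 had both knockout cultures above both wild type cultures and 1, Slc1a6, had both below. Over all 22, 11 did not overlap with the knockout higher and 1 with it lower, against 21.1% and 17.3% of all tested probe sets. Foxp2 was the largest of the higher ones, at 280.2 and 286 against 200.2 and 130.3, a difference of 0.81 (SE 0.38, adjusted p = 0.632). Slc1a6 gave -0.53 (SE 0.42, adjusted p = 0.872).

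Averaged over both conditions, the genotypes differed in 0 of 22 member probe sets (limma, 0.706% of all), with 3 at an unadjusted p under 0.05 and a lowest adjusted p of 0.247. Of these 3, 2 were Foxp2 probe sets, at 0.66 (SE 0.25) and 0.62 (SE 0.20), and the other was Rora 1436326_at at -0.55. The test of whether the Shh effect differed between genotypes called 0 of 22 (limma, 0% of all tested probe sets), and 0 had an unadjusted p under 0.05, against 4.33% of all. The member interactions ran from -1.10 to 0.68 with a median of 0.06, which single arrays moved: it was 0.43 without replicate 1 and -0.13 without replicate 4. The intervals of the 8 brightest probe sets reached from -1.90 to 1.69, which leaves room for sizeable differences.

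The 8 brightest probe sets shared the order of the groups: untreated cultures of either genotype at the top, where the genotypes overlapped in all 8, and Shh cultures of either genotype at the bottom. With Shh the genotypes overlapped only in Pcp2, and the limma test called none of the 8. Summed over the 8 brightest probe sets, the member signal was 22888 to 38446 in untreated wild type and 27338 to 49766 in untreated knockout cultures, then 7007 to 7419 and 7393 to 9421 with Shh.

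The members also varied together between cultures of the same group. Each log2 value was taken as a deviation from the mean of its group, which removes the effect of Shh and genotype. Wild type replicate 1 was the lowest of its group in 8 of 8 brightest probe sets, with a median deviation of -0.58, and knockout replicate 4 was lowest in 8 of 8, at -0.45. Knockout replicate 6 was highest in 8 of 8, at 0.38. Over all tested probe sets, the medians of the 6 untreated arrays were between -0.01 and 0.01.

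**Figure D3:**
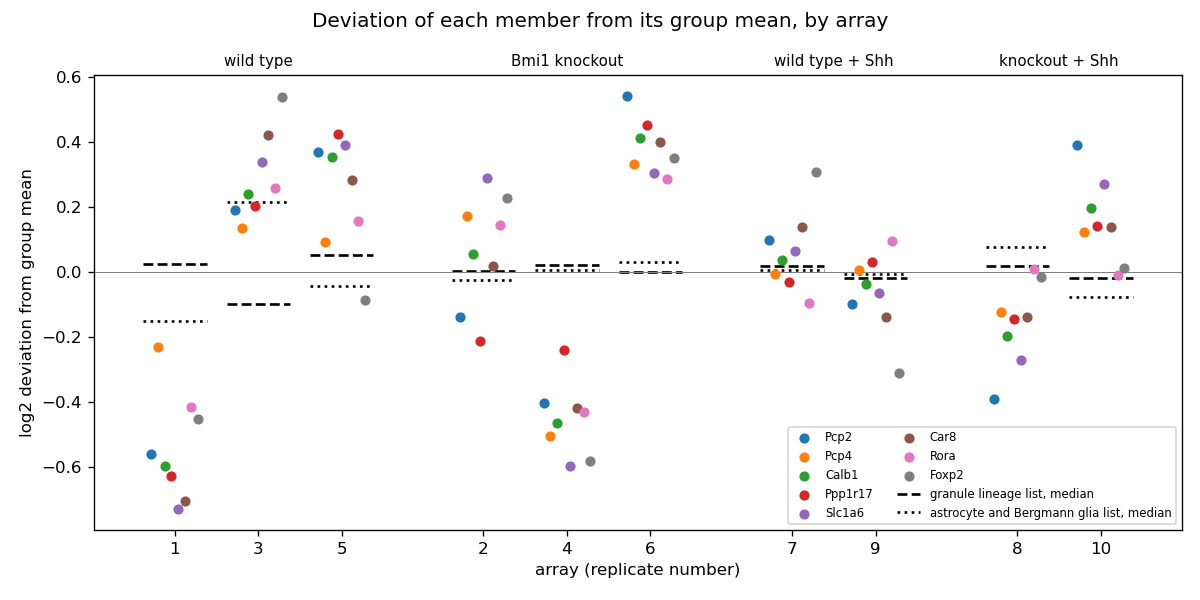
Log2 deviation from the group mean (vertical axis) on each array (horizontal axis, replicate number) for the brightest probe set of the 8 genes (points), with the median of the granule lineage list (dashed) and of the astrocyte and Bergmann glia list (dotted). All 8 points lie below 0 on replicates 1 and 4 and above 0 on replicate 6, while the granule lineage median stays between -0.10 and 0.05.

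All 28 pairs among the 8 brightest probe sets had positive correlations of these deviations over the 10 arrays, from 0.549 (Ppp1r17 with Foxp2) to 0.968 (Calb1 with Slc1a6), with a median of 0.874. The points share their arrays and scaling, and the deviations of a group sum to 0, so these values are descriptions. Probe sets of 1 gene varied alike for Pcp2 (0.962) and Calb1 (0.918 to 0.971), less so for Car8 (0.758 to 0.906) and Foxp2 (0.751 to 0.927), and not uniformly for Rora (-0.24 to 0.874). The cultures with the high 18S signal were at opposite ends: replicate 1 was low and replicate 6 high in the members. Without both of them, 22 of 22 member probe sets fell in wild type and 20 of 22 in the knockout. The part of RNA quality in the culture differences was not tested.

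Other genes known from Purkinje cells followed the same cultures. From a list of 36 such genes, 28 were tested, and 19 (67.9%) had a median correlation above 0.5 with the members' deviations, where 2515 of 22497 other tested probe sets (11.2%) did. Plcb4, the phospholipase C beta of Purkinje cells, stood at 0.910, Inpp5a, which removes IP3, at 0.883, Kitl at 0.843, Shh itself at 0.840 and Gng13, a G-protein gamma subunit, at 0.840. Fam107b was the only one below -0.5, at -0.622. In the list of 20 tested granule lineage genes, 1 was above 0.5 and 4 below -0.5, among them the proliferation marker Mki67 at -0.675. Of the 22497 other tested probe sets, 1887 were below -0.5. Genes of other lists also followed the members. Above 0.5 were 9 of 19 genes of IP3 and calcium signalling (47.4%), some of them shared with the Purkinje list. So were 4 of 12 GABAergic interneuron genes (33.3%), with 2 below -0.5, and 1 of 12 glial genes, Hopx at 0.850. These genes were picked here after their values were seen.

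In the wider Purkinje list, genes moved both ways with Shh. In wild type 13 of 28 fell and 3 rose, with a median of -0.67, and in the knockout 16 fell and 3 rose, with a median of -0.85. Of all tested probe sets, 17.2% fell and 9.82% rose in wild type, and 13.6% fell and 7.62% rose in the knockout. The calcium channels Cacna1g (-2.90 in wild type and -1.94 in the knockout) and Cacna1a (-2.05 and -1.44), the neurofilament Nefh (-2.83 and -2.14), Gng13 (-2.72 in wild type and at least 7.67-fold lower in the knockout), and the G-protein regulator Rgs8 (-2.47 and -2.47) fell in both genotypes. So did Pvalb, a calcium buffer shared with interneurons (-1.63 and -1.82), and Aldoc, the zebrin marker of Purkinje stripes that glia also express (-1.69 and -0.93). The genes that rose were Doc2b (1.36 and 1.00), Stmn4 (0.67 and 1.06) and Bcl11b (0.66 and 0.98), named here after their values were seen.

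Endogenous Shh RNA, the ligand gene of Purkinje cells, read 110, 312 and 215 in untreated wild type and 304, 103 and 331 in untreated knockout cultures, and 88.5 and 63.7, then 69.7 and 53.6 with added Shh. It fell in the knockout (log2 difference -1.83, SE 0.54, adjusted p = 0.0426). In wild type the difference was -1.37 (SE 0.54, adjusted p = 0.0954), not past the threshold. Replicates 1 and 4, the low cultures of the 8 member genes, also had the lowest untreated Shh signals.

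In the pathway of IP3 and calcium signalling, where Car8 and Itpr1 act, 7 of 19 tested genes fell in each genotype and 0 rose. The other 12 did not pass the threshold, and the medians were -0.50 and -0.38. Over all tested probe sets, 17.2% fell in wild type and 13.6% in the knockout. The genes that fell included the receptor Grm5 (-3.54 and -2.30), the IP3 kinase Itpka (-1.82 and -2.35), the IP3 receptor Itpr2 (-1.96 and -2.01) and the calcium pump Atp2a3 (-1.57 and -1.88).

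Many relatives of the members were also lower. In wild type 11 of 18 tested relatives fell and 2 rose, and in the knockout 10 fell, where 17.2% and 13.6% of all tested probe sets fell. Foxp1 and Foxp4, the relatives of Foxp2, fell too, with log2 differences of -0.37 and -1.04 in wild type and -0.39 and -0.92 in the knockout. The glial glutamate transporter Slc1a3 fell (-2.09 and -1.38), and so did the carbonic anhydrase Car4, by -3.51 in wild type and at least 13.8-fold in the knockout, where 1 array was at the floor. Whether relatives and members differed in their response was not tested.

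**Figure D4:**
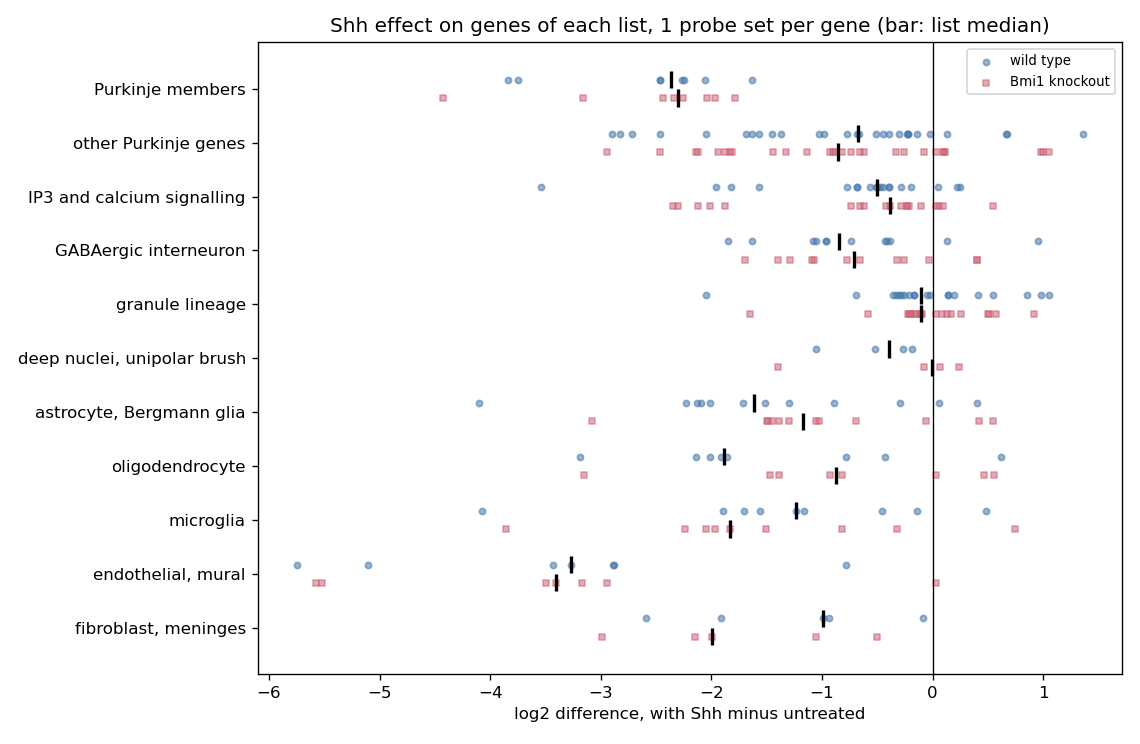
Log2 Shh effect in each genotype for the tested genes of each marker list, with 1 point per gene and a bar at the list median. The Purkinje members lie near -2.4 and -2.3, the granule lineage list near -0.1, and the endothelial list lowest, near -3.3 and -3.4.

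Markers of several other cells moved with the members. Genes of astrocytes and Bergmann glia fell in 9 of 12 in each genotype (medians -1.61 and -1.17), oligodendrocyte genes in 6 and 5 of 8 (-1.89 and -0.87), microglial genes in 6 of 9 (-1.24 and -1.83), endothelial and mural genes in 7 and 6 of 7 (-3.27 and -3.40), fibroblast genes in 3 and 4 of 5 (-0.99 and -2.00) and GABAergic interneuron genes in 8 and 7 of 12 (-0.85 and -0.71). Genes of the deep nuclei and unipolar brush cells fell in 1 of 4, Calb2, which is also in the interneuron list and among the relatives. Some other genes are in several lists too, so the counts of the lists are not separate. The shares of all tested probe sets, for these lists and the granule lineage list below, were 17.2% lower and 9.82% higher in wild type. In the knockout they were 13.6% lower and 7.62% higher. Single genes that fell included the endothelial and mural genes Rgs5 (-5.75 and -5.58) and Cldn5 (-5.10 and -5.52), Gdf10 of Bergmann glia (-4.10 and -3.08), the myelin gene Mag (-3.19 and -3.15) and the microglial receptor Cx3cr1 (-1.89 and -1.83). A few genes of these lists rose: Pdgfra in both genotypes (0.62 and 0.47), Lhx2 in wild type (0.95) and Cd68 in the knockout (0.75), named after their values were seen. Among the interneuron genes were Gad1 (-0.96 and -0.77) and Gad2 (-1.63 and -1.09). The summed signal of the endothelial and mural list was 6284 to 8082 without and 417 to 545 with Shh, with Pecam1 at the floor on all Shh arrays, and that of the glial list 57033 to 72057 without and 24314 to 33718 with it. Granule lineage genes had 4 higher and 3 lower of 20 in wild type and 4 and 2 in the knockout (medians -0.11 and -0.10), and their summed signal was 97579 to 116642 without and 107945 to 112115 with Shh. The defining markers of the labelled cells were present on every array: Atoh1, the factor of granule cell precursors, at 1431 to 2256 and Neurod1 at 10904 to 17919. Ptch1, a direct Shh target, was higher by 0.98 and 0.92, and Gli1 by 1.05 and 0.57. The part of these other cells in the members' fall was not tested.

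Over all 10 arrays, the genes whose log2 signal was most like that of each member were again often members. The correlations were 0.996 for the brightest Calb1 probe set with Car8 and 0.998 for Car8 with another Calb1 probe set, 1456934_at. They were 0.993 for Rora with Calb1 and 0.989 for Pcp2 with Fam184b, closely followed by Calb1 at 0.989 and Eral1 at 0.988. Pcp4 was nearest to Arhgef33 (0.993), Ppp1r17 to Slc12a5 (0.995), Slc1a6 to Mgll (0.993) and Foxp2 to Scn2a (0.989). The remaining nearest genes were Arhgef33 and Fam184b for Calb1, Rora and Calb1 for Pcp4, Hopx and Dpp10 for Ppp1r17, Plekhd1 and Gng13 for Slc1a6, Kcnip1 and Htr1b for Car8, Slc12a5 and Arhgef33 for Rora, and Cacng4 and Stoml1 for Foxp2. These correlations contain the step between untreated and Shh arrays, which all points share.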

How the data were processed

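RNA of 10 cultures was hybridized to Mouse Genome 430 2.0 arrays, and the deposited values are linear signal intensity made by the authors with MAS5 (GCOS 1.2, per the submitters' processing notes). The trimmed mean (2%) was 500 on each array, and no further scaling was applied. No detection calls were used. Probe sets were named from the platform annotation given with the data. Signals under the 25th percentile (20.9) were raised to it, because MAS5 values vary most at low signal, log2 was taken from the deposited intensity, and probe sets with a mean at or above the median (6.25) were tested. A model with 1 mean per group over all 10 arrays was fitted with limma 3.58.1 (lmFit, eBayes) in R 4.3.3, with 6 residual degrees of freedom. The tests were two-sided, with Benjamini-Hochberg adjustment over 22519 probe sets per comparison, a threshold of 0.05 and no block. The script was tested on simulated data. The number of arrays limits the precision.

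The labels give unique numbers and no pairs. Arrays with consecutive numbers deviated together from their group means (correlations 0.153 to 0.192 over probe sets, against -0.22 to 0.05 for other untreated pairings), so a blocked fit was an alternative. Because the deviations of a group sum to 0, part of this contrast is built in. For the same reason the Shh pairs, 7 with 8 and 9 with 10, hold a single value (0.168). Other alternatives changed the floor, filter, scaling, probe set choice and arrays used.

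All 9 members were named with all their probe sets. From each other list, genes past the threshold were named, at most the 6 with the largest difference, plus Shh, Gad1, Gad2, Pvalb, Atoh1, Neurod1, Foxp1 and Foxp4, and the 3 genes most correlated with each member. Not every gene that this rule allows is printed, and those outside it, such as Inpp5a, Fam107b and Mki67, were chosen after their values were seen. Members and lists were chosen with earlier results of these data known.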

Additional observations from a re-analysis of the deposited data

How the results depend on the processing

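The counts of member probe sets that fell with Shh were 20 of 22 in both genotypes. They were lower where fewer were tested: 8 of 8 with the filter at the 75th percentile and 8 of 8 with 1 probe set per gene, in wild type and in the knockout. Leaving out 1 array in turn gave 17 (without replicate 9) to 22 (without replicate 1) in wild type and 16 (without replicate 8) to 21 in the knockout. Quantile normalization gave 18 and 19, no filter 20 and 19 of the 28 then tested, only the arrays of the groups compared 20 and 21, and leaving out replicates 1 and 6, an alternative chosen after seeing the data, 22 and 20. The replicate block gave 20 and 20, as did the other floor and log2(signal + 16). Quantile normalization changed the split over all tested probe sets, from 2211 higher and 3866 lower to 2689 and 2787 in wild type, and from 1715 and 3066 to 2189 and 2335 in the knockout. Of 772 single Shh values under the alternatives, 18 lost and 8 gained the call and 0 changed direction. The calls lost in wild type were Rora 1458129_at (-1.52 without replicate 7) and, without replicate 9, Rora 1436325_at (-0.89), Rora 1458145_at (-0.81) and Foxp2 1438231_at (-1.52). In the knockout they were, without replicate 8, Foxp2 1438231_at (-2.00), Car8 1457904_at (-2.17), Rora 1458129_at (-1.85) and Rora 1458145_at (-0.89), and, without replicate 10, Car8 1424958_at (-2.36), Foxp2 1438231_at (-1.59) and Rora 1458129_at (-1.71). Foxp2 1422014_at gained the call in both genotypes without replicate 1 (-1.82 and -1.45) and Rora 1436325_at in the knockout without replicate 4 (-0.80). The other losses, under quantile normalization, no filter or without replicates 1 and 6, were in Rora and Foxp2. The brightest probe set of each of the 8 genes kept its call in every setting that tested it. With the filter at the 75th percentile, those of Ppp1r17 and Slc1a6 were not tested. The genotype effects and the interaction had 0 calls in every setting run, the replicate block included, and leaving out 1 array gave 0 to 0. For these effects the replicate block was a pair factor that left 3 residual degrees of freedom, a weak test. Of 1500 single values of these effects, 39 moved by more than the spread between replicates, most of them without replicates 1 and 6. The median genotype difference in untreated cultures, 0.14, was -0.19 without replicate 1, 0.01 without 6, 0.36 without 3, 0.38 without 4, 0.31 without 5 and -0.35 without 1 and 6. With Shh it was 0.17, and 0.31 and 0.32 without replicates 7 and 8. The average over both conditions, 0.19, ranged from 0.00 without replicate 1 to 0.30 without 4, and was -0.04 without 1 and 6. The median interaction, 0.06, was 0.43 without replicate 1, 0.24 without 6, 7 or 8, 0.10 without 2, -0.09 without 3, -0.13 without 4, -0.05 without 5 and 0.55 without 1 and 6, and 0.03 with the stricter filter or 1 probe set per gene. With 2 Shh arrays a group, small genotype differences could not be detected.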
